A study of Sus scrofa with 9 samples.

Results

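Cilium and sperm structure genes gave rise to 95 of the 3071 circRNAs in the table, and these came from 53 of its 1727 host genes. They were taken by the symbol of the host gene, which had to begin with one of 22 family stems: DNAH, DNAI, DNAL, DRC, CFAP, CCDC, SPATA, SPAG, SPEF, SPACA, IFT, ODF, TEX, TEKT, ZPBP, CATSPER, AKAP, TTC, ARMC, RSPH, IQC or LRRC. The rule itself uses no measured value, but it was drawn up with earlier results of these data known. For 7 of the stems (DNAI, DNAL, DRC, SPEF, SPACA, CATSPER and RSPH) the table listed no circRNA. The stems CCDC, TTC, ARMC, IQC and LRRC stand for protein repeats and motifs rather than for a structure, and 25 of the members, from 17 host genes, matched by name alone, with no role in a cilium or sperm assigned to them here.

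Porcine samples of 3 kinds were compared. Oocytes were taken from ovarian follicles of Long White postpubertal gilts over 8 months old and matured in vitro for 42 to 44 h, in medium with the gonadotropins eCG, HCG and FSH and the growth factors FGF-2, IGF-1, LIF and EGF, and PN embryos were made from oocytes matured this way. The methods give 10000 MII oocytes, freed of cumulus cells, and 10000 PN embryos, collected 18 h after the start of IVF, for RNA isolation. They do not say whether this number is per replicate or in all. The methods name Large White boars 2 to 3 years old for the sequenced sperm, which was fresh and purified, and Landrace boars of the same age for the semen used in IVF, in medium with caffeine. The sperm in the libraries and the sperm that made the embryos are thus given as of different breeds. The labels put all samples down as without treatment. Every group had 3 libraries. In sperm, replicate 3 repeats the circRNA column of replicate 1 value for value, and the pair entered as 1 sample (n = 2 for sperm), which leaves 8 distinct libraries. Separate animals or collections are not stated for the replicates, and p-values therefore measure only the spread between these libraries.

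A motile cilium or sperm tail is built on the axoneme, a ring of doublet microtubules around a central pair. Dynein arms on the doublets slide them past each other, radial spokes and tether proteins keep this movement in order, and intraflagellar transport carries parts out from the basal body. The sperm head adds an acrosome, a vesicle whose proteins take part in contact with the zona pellucida. Mature sperm transcribes little, and the PN embryo inherits nearly all of its RNA from the oocyte. CircRNAs arise when an exon's end is spliced back to an upstream exon start of the same transcript, and the values below are the counts deposited for such circles. Some genes yield many different circles from one transcript, and these can share exons.

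Total circRNA counts were 22809 to 26200 in the oocyte and embryo libraries and 155731 and 167851 in the sperm libraries. A floor of 3 counts stands for 0.0115% to 0.0132% of an oocyte or embryo library and for 0.00179% and 0.00193% of a sperm library, and a circRNA at 0 may lie under it. Libraries went through PCR with no molecular identifiers described, so intervals and floors speak of counting error alone. Of 16 sperm and spermatid markers, ODF2, TEKT3 and ZPBP had a circRNA, with summed counts of 0 in every MII oocyte library, 0 to 2 in PN embryos, and 376 and 934 in sperm. Their circRNAs are themselves members, and the 376 counts of sperm replicate 1 came from ZPBP alone. Of 15 oocyte markers, KPNA7, NLRP5, ZP2 and ZP3 had one, with 0 to 49 counts in MII oocytes, 0 to 91 in PN embryos and 0 in both sperm libraries. Oocyte marker circRNAs were thus at 0 in 1 MII oocyte and 1 PN embryo library. Of 9 cumulus markers, CYP19A1 alone had one, with 19 counts in sperm replicate 1, and 0 of 9 leukocyte and 0 of 5 epithelial markers had one. In such bulk samples, fewer cells of a type and less RNA per cell cannot be told apart.

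The members were present in all 3 kinds of sample and made up a small and uneven part of the circRNAs. In MII oocytes 24, 25 and 14 members were above 0 in replicates 1, 2 and 3, in PN embryos 14, 18 and 18, and 10 and 20 were above 0 in sperm. Their counts summed to 606, 585 and 222 in MII oocytes, to 471, 805 and 361 in PN embryos, and to 1509 and 6746 in sperm. As a share of the library, this was 2.502%, 2.44% and 0.973% in MII oocytes, 2.04%, 3.07% and 1.47% in PN embryos, and 0.969% and 4.02% in sperm. The lowest and the highest share of all libraries were both found in sperm, and the 3 groups overlapped. The 95% Wilson intervals, for counting error alone, ran from 0.922% to 1.02% and from 3.93% to 4.11% in the sperm libraries.

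Mean shares were 1.97% ± 0.865 (SD, n = 3) in MII oocytes, 2.20% ± 0.811 (SD, n = 3) in PN embryos and 2.49% ± 2.16 (SD, n = 2) in sperm. These means differed by less than the SD of any group. The median count of a detected member was 18, 14 and 4 in MII oocytes and 31, 41 and 3 in PN embryos, against 20, 17 and 6 and 17, 17 and 4 for all circRNAs detected in the same libraries. In sperm it was 80 and 228, against 156.5 and 133 for all circRNAs. A detected member was thus counted more often than the typical circRNA in sperm replicate 2 and less often in replicate 1.

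**Figure D1:**
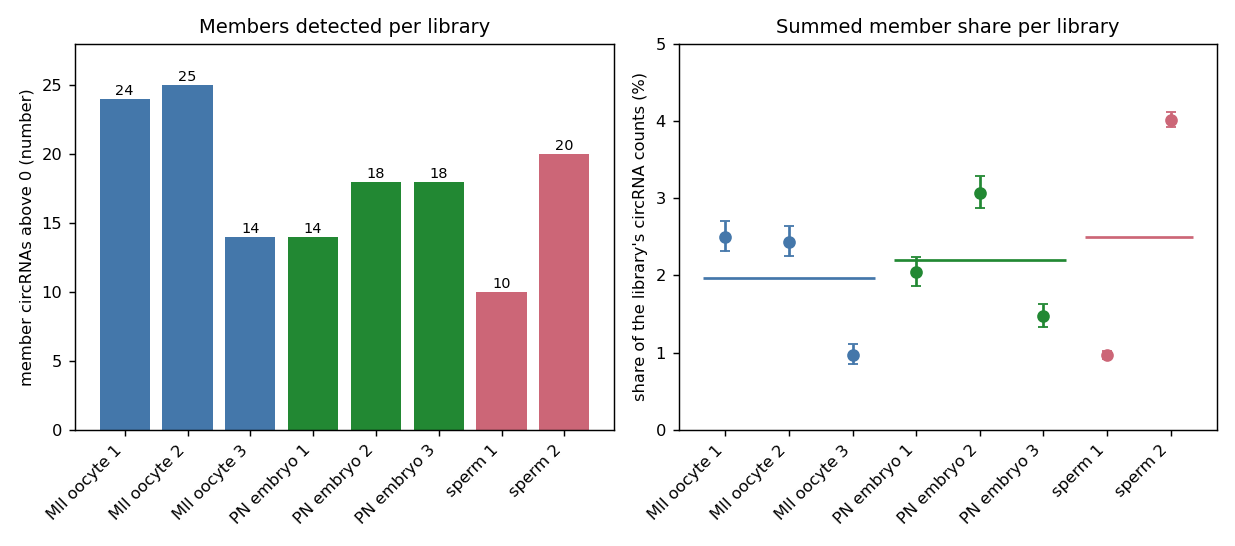
The left panel gives the number of member circRNAs above 0 in each of the 8 distinct libraries, and the right panel their summed share of the library's circRNA counts in percent, with 95% Wilson intervals for counting error and a line at each group's mean. The shares run from 0.969% in sperm replicate 1 to 4.02% in sperm replicate 2, and the MII oocyte and PN embryo libraries lie between these.

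Over the libraries of a group, 50 members from 31 host genes were detected in MII oocytes, 39 from 23 host genes in PN embryos and 28 from 24 host genes in sperm. This is 52.6%, 41.1% and 29.5% of the members, beside 48.1%, 42.6% and 32.7% of all circRNAs in the table. Most detections were made in a single library: 78.0% of the members detected in MII oocytes, 74.4% in PN embryos and 92.9% in sperm were above 0 in 1 library of that group, against 79.0%, 80.2% and 87.5% over the whole table. Of the 95 members, 63 were above 0 in only 1 of the 8 libraries (66.3%, against 71.4% of all circRNAs), 9 in 3 or more, and none in more than 5. Only 5 members were above 0 in every library of a group, namely circRNA401 of CFAP44 and circRNA504 of DNAH7 in MII oocytes, circRNA313 of CCDC126 in PN embryos, and circRNA1636 of ZPBP and circRNA2638 of DNAH10 in sperm. This is 2.11%, 1.05% and 2.11% of the members in the 3 groups, beside 2.41%, 2.41% and 4.10% of all circRNAs.

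By group, 33 members were found in MII oocytes alone (34.7%, beside 30.7% of all circRNAs), 19 in PN embryos alone (20%, beside 23.8%) and 22 in sperm alone (23.2%, beside 24.8%). MII oocytes and PN embryos shared 15 that were not in sperm (15.8%, beside 12.8%). Just 1 member, circRNA894 of CFAP44, was above 0 in all 3 groups (1.05%, beside 2.67%), and 1, circRNA1055 of TTC7B, in MII oocytes and sperm (1.05%, beside 1.89%). A further 4 were above 0 in PN embryos and sperm and at 0 in every MII oocyte library. Of the members found in MII oocytes 32.0% were also in PN embryos, and of those in PN embryos 41.0% were also in MII oocytes, beside 32.1% and 36.2% in the whole table. Of the 28 members in sperm 78.6% were in sperm alone, beside 75.8% of all sperm circRNAs.

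**Figure D2:**
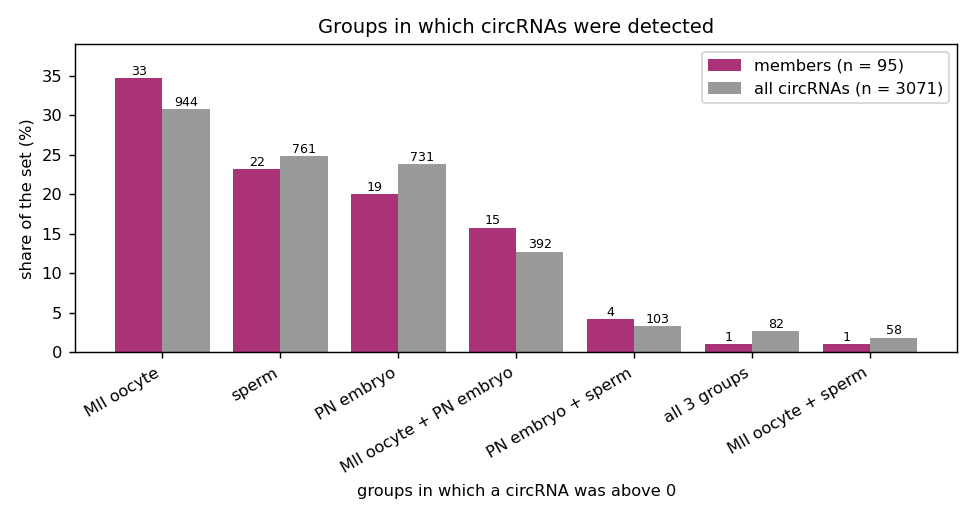
Bars give the percent of the 95 members (purple) and of all 3071 circRNAs (grey) that were above 0 in the groups named below them, with the number of circRNAs above each bar. Members and the whole table follow the same order, from 33, 22 and 19 members in MII oocytes alone, sperm alone and PN embryos alone down to the 2 rarest patterns, which tie at 1 member each.

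Sperm had 9 host genes and 6 circles in common with oocytes or embryos. The 6 circles are 21.4% of the 28 in sperm, beside 24.2% of all sperm circRNAs. Circles of 38 host genes were found in oocytes or embryos and circles of 24 in sperm, and those common to both were AKAP6, CCDC171, CFAP43, CFAP44, DNAH12, TEKT3, TTC27, TTC7B and ZPBP. This is 37.5% of the sperm hosts, beside 45.9% in the whole table, and 23.7% of the oocyte and embryo hosts, beside 28.8%. In CFAP43, DNAH12 and TTC27 the circles in sperm were different ones from those in oocytes or embryos, which is true of 33.3% of the shared host genes here and of 39.6% in the whole table.

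CFAP44, which encodes an axonemal protein of the tether that holds inner dynein arms, had the most circles of any member gene, 14. The gene lies at chr13:146471979-146628535 in RefSeq for Sscrofa11.1, and positions of single circles within it are not analysed here. Across all hosts, 7 genes had 14 or more circles. Summed over its circles, CFAP44 had 165, 181 and 95 counts in the MII oocyte libraries, 59, 236 and 96 in those of PN embryos, and 80 and 0 in sperm. It was thus detected in all 6 oocyte and embryo libraries, where it made up 12.5% to 42.8% of the member counts, and in 1 of the 2 sperm libraries. Its share was 0.617% ± 0.178 (SD, n = 3) in MII oocytes and 0.516% ± 0.340 (SD, n = 3) in PN embryos, a difference smaller than either SD.

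The circles behind these sums changed from library to library. In MII oocytes 10 of the 14 circles were detected and in PN embryos also 10, of which 6 were in both groups. The leading one was circRNA402 in MII oocyte replicate 1 (72 counts), circRNA893 in replicate 2 (83) and circRNA401 in replicate 3 (55). In PN embryos the leading circles were circRNA404 (44 counts), circRNA894 (81) and circRNA2186 (67). No circle led in more than 1 of these 6 libraries. circRNA404 had 1 count outside PN embryo replicate 1, and circRNA2186 had none outside PN embryo replicate 3.

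The most regular of them was circRNA401. Its counts were 64, 22 and 55 in MII oocytes, 14, 73 and 0 in PN embryos, and 0 in both sperm libraries. All MII oocyte libraries were above both sperm libraries, as for 2.11% of the members and 1.89% of all circRNAs, while MII oocytes and PN embryos overlapped. Against the floor of 3 counts per sperm library, its mean share in MII oocytes was at least 107-fold higher than in sperm and that in PN embryos at least 60.9-fold higher. The PN embryo bound rests mostly on the 73 counts of replicate 2 and would be lower without it. It ranked 52 of the 1476 circRNAs found in MII oocytes by mean share. circRNA894, the member present in every group, was counted 0, 47 and 1 times in MII oocytes, 0, 81 and 0 times in PN embryos, and 80 and 0 times in sperm. In each group nearly all of its counts came from 1 library.

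DNAH7, an inner arm dynein heavy chain gene at chr15:99722278-99987348, came next with 7 circles. Their counts summed to 91, 48 and 27 in MII oocytes, to 62, 61 and 30 in PN embryos and to 0 in both sperm libraries, so the oocyte and embryo libraries overlapped with each other and not with sperm. CFAP44 and DNAH7 were the only 2 of the 53 host genes above 0 in all 6 oocyte and embryo libraries (3.77%, beside 3.30% of all hosts in the table). DNAH7 was also the 1 member gene of which that was true with 0 counts in sperm (1.89%, beside 1.80%). The leading circle again varied between libraries. circRNA502 had 81, 1 and 0 counts in MII oocytes and was at 0 elsewhere, and circRNA504 had 1, 46 and 1 in MII oocytes and 21, 61 and 0 in PN embryos. circRNA972 held 26 of the 27 counts of MII oocyte replicate 3.

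**Figure D3:**
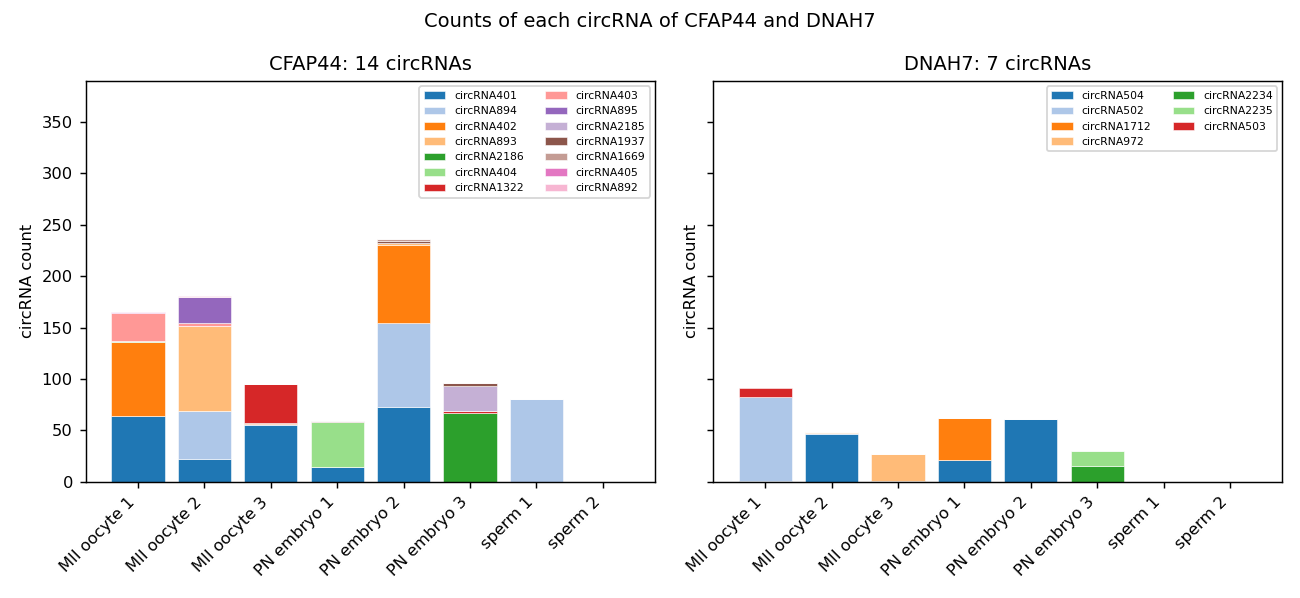
Stacked bars give the circRNA counts of CFAP44 (left, 14 circles) and DNAH7 (right, 7 circles) in each of the 8 libraries, with 1 colour per circle. The sums lie between 59 and 236 for CFAP44 and between 27 and 91 for DNAH7 in the oocyte and embryo libraries, while the circles that make them up differ. In sperm, CFAP44 had 80 counts in replicate 1 and DNAH7 had none.

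Axonemal dynein and its assembly were represented by 18 circles of 6 genes, whose counts summed to 178, 88 and 33 in MII oocytes, 119, 220 and 46 in PN embryos, and 3 and 1318 in sperm. DNAH11, an outer arm heavy chain, had 4 circles, with sums of 81, 0 and 0 in MII oocytes, 57, 0 and 1 in PN embryos and 0 in sperm. DNAH10, an inner arm heavy chain, had 2 circles, both in sperm alone. circRNA2638 had 3 and 220 counts in the sperm libraries, and circRNA2996 had 0 and 289. The 3 counts of circRNA2638 are 0.00193% of replicate 1, less than a 0 in an oocyte or embryo library can hold, so a higher level than there was resolved in replicate 2 alone.

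DNAH12, another inner arm heavy chain, had circRNA2907 with 809 counts in sperm replicate 2 and circRNA876 with 5 counts in MII oocyte replicate 2. SPAG1, which is needed to assemble dynein arms in the cytoplasm, was not found in sperm. Its circRNA104 held 159 counts in PN embryo replicate 2, the highest count of any member in an oocyte or embryo library, and 4 counts in MII oocyte replicate 1. Its circRNA674 had 0, 35 and 6 counts in MII oocytes, and its only counts in PN embryos were 15 in replicate 3.

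CFAP43, the partner of CFAP44 in the tether, had 891 counts of circRNA3010 in sperm replicate 2 and 3 counts of circRNA1426 in MII oocyte replicate 3. TEKT3, a tektin that runs along the doublet microtubules, had 1 circle, circRNA2133, with 0 and 613 counts in sperm and a single count in PN embryo replicate 3. The 3 circles of CFAP70, an axonemal protein, were in sperm alone. Of these, circRNA2653 and circRNA2652 had 357 and 62 counts in replicate 1, and circRNA3006 had 13 in replicate 2. SPAG16, a central pair protein, was not found in sperm, with 43 counts of circRNA511 in MII oocyte replicate 1 and 3 of circRNA1986 in PN embryo replicate 2.

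Genes of intraflagellar transport gave 5 circles. TTC21B, a subunit of the complex that moves cargo back to the cell body, had 3 of them. circRNA1980 had 137 counts in PN embryo replicate 2, and circRNA969 and circRNA970 had 13 and 31 in MII oocyte replicate 2. IFT80 had 22 counts in MII oocyte replicate 1 and IFT172 had 4 in sperm replicate 1. None of the 5 was above 0 in more than 1 library.

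Centrosome and cilium base genes had 11 circles of 9 genes, of which 5 circles were in sperm alone. The highest were circRNA2986 of ARMC9, a protein of the cilium base, with 0 and 499 counts, and circRNA2425 of CCDC170 with 439 and 0. ODF2, a protein of centriole appendages and of the outer dense fibres of the sperm tail, had 0 and 48. In MII oocytes the highest of this group was circRNA397 of IQCB1, with 46 counts in replicate 1. circRNA695 of CCDC18 had 44 counts in MII oocyte replicate 2. In PN embryos the highest were circRNA695, with 67 counts in replicate 3, and circRNA1530 of the same gene, with 50 in replicate 1.

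The sperm head and its connection to the tail were represented by ZPBP, SPATA6 and CCDC136, with 1 circle each and 0 counts in every MII oocyte library. ZPBP encodes a zona pellucida binding protein of the acrosome and lies at chr9:136105129-136186744. Its circRNA1636 had 376 and 273 counts in sperm. The PN embryo libraries had 1, 0 and 1, and all MII oocyte libraries 0. It was the only member counted more than 3 times in both sperm libraries, and these were above every other library. Sperm was above MII oocytes without overlap for 2.11% of the members, beside 3.65% of all circRNAs, and above PN embryos for 2.11%, beside 3.45%. Besides ZPBP, these shares count circRNA2638 of DNAH10, whose 3 counts in sperm replicate 1 lie under the oocyte and embryo floors. The mean share of circRNA1636 in sperm was 0.202%, at least 15.9-fold higher than in MII oocytes against the floor of 3 counts per library. Over pooled counts the ratio of sperm to PN embryos was 74.0, with an exact 95% counting interval of 20.4 to 612, since it rests on 2 embryo counts. It ranked 114 of the 1004 circRNAs found in sperm. SPATA6, of the connecting piece between head and tail, had 80 and 0 counts in sperm, and CCDC136, an acrosome gene, 0 and 2.

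TTC29, a gene of sperm tail motility, was found in PN embryos alone, with 88, 2 and 0 counts of circRNA1644. Of the TEX and SPATA genes other than SPATA6, SPATA5, an ATPase of ribosome maturation, had 0, 41 and 55 counts of circRNA862 in MII oocytes and 0 in all other libraries. TEX9 had 14, 66 and 0 counts of circRNA224 in MII oocytes and 0, 0 and 102 in PN embryos. TEX14, which keeps the bridges between germ cells open, had 16 counts in sperm replicate 1. Of the 4 TEX and SPATA genes, TEX14 and SPATA6 were thus found in sperm, and SPATA5 and TEX9 were not.

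The AKAP family, whose proteins anchor protein kinase A, had 5 circles of 4 genes. AKAP6 held both circles that were found in sperm, circRNA2030 with 906 counts and circRNA2689 with 537, all in replicate 2, and circRNA2030 also had 1 count in PN embryo replicate 3. circRNA1623 of AKAP10 had 1, 68 and 0 counts in PN embryos. AKAP7 and AKAP11 had 3 counts each in MII oocyte replicate 2.

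**Figure D4:**
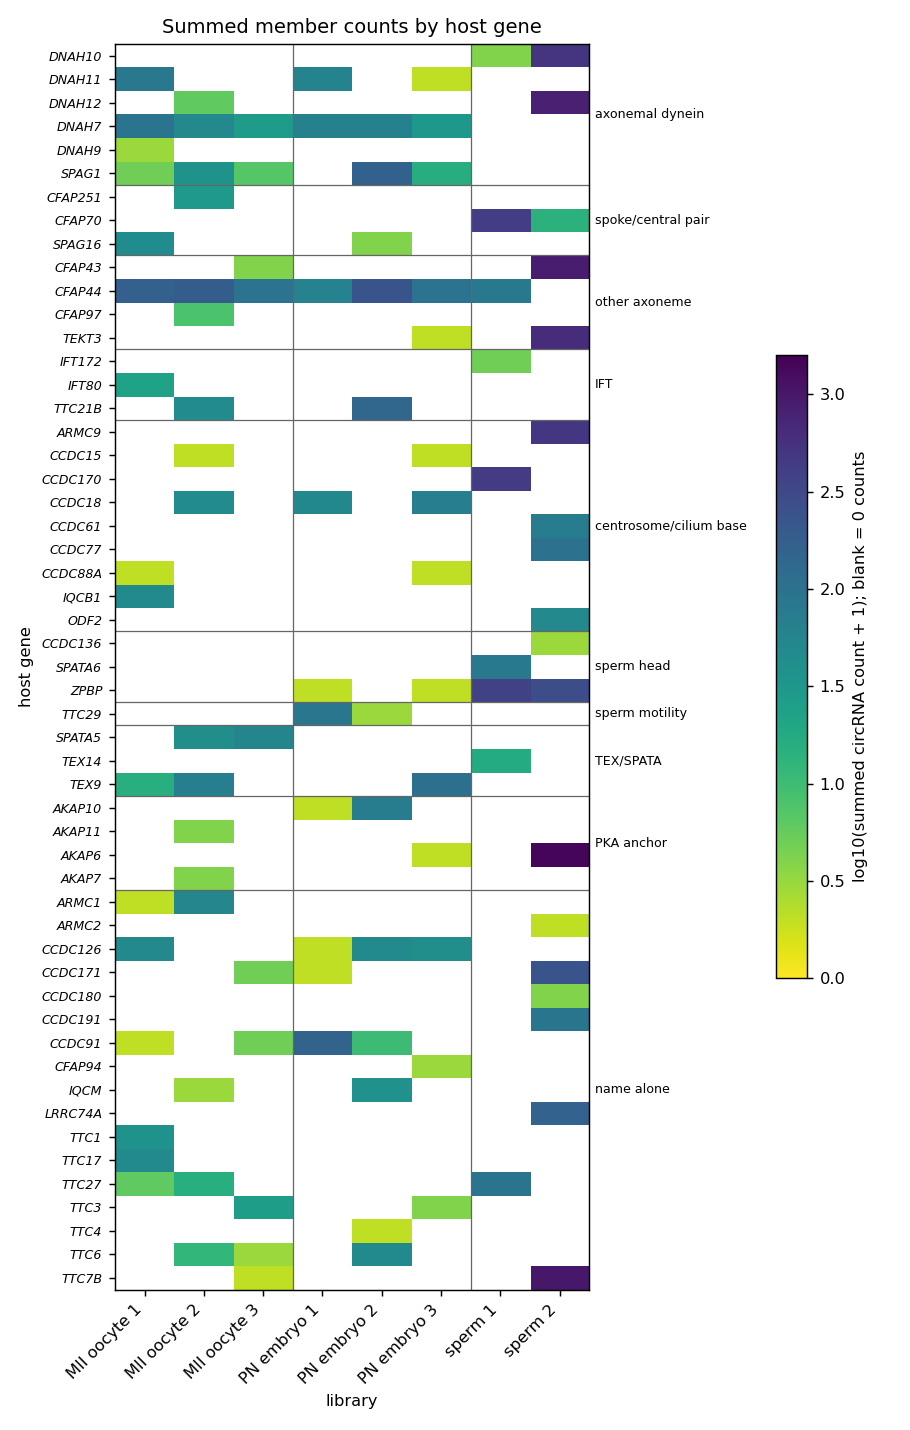
Colour gives log10(count + 1) of the circRNA counts summed over each of the 53 host genes in each of the 8 libraries, with genes ordered by role and 0 left blank. CFAP44 and DNAH7 form the only rows filled across all 6 oocyte and embryo libraries, and CFAP70, DNAH10 and ZPBP are the 3 genes above 0 in both sperm libraries (5.66% of member hosts, beside 10.02% of all hosts).

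Genes matched by name alone held the highest count of any member. It was 993, of circRNA1055 of TTC7B, part of a lipid kinase complex at the plasma membrane, in sperm replicate 2. This circle had 0 counts in sperm replicate 1 and 1 in MII oocyte replicate 3. The next highest count of a gene matched by name alone was 236, of circRNA1594 of CCDC171 in sperm replicate 2. That was below the 906, 891 and 809 counts there of circles of AKAP6, CFAP43 and DNAH12, which have an assigned role. CCDC126 had 49, 0 and 0 counts of circRNA313 in MII oocytes and 1, 45 and 40 in PN embryos, with 0 in sperm. It was the only member in all 3 PN embryo libraries, and there its mean share was at least 60.9-fold higher than in sperm. The 1 count of PN embryo replicate 1 is under the floor of 3, so this bound rests on replicates 2 and 3.

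CCDC91, a protein of the trans-Golgi network, had 3 circles and was not found in sperm. Its circRNA1506 had 100, 8 and 0 counts in PN embryos and 0 in MII oocytes, and its circRNA1097 had 51, 1 and 0 in PN embryos and 0, 0 and 4 in MII oocytes. circRNA111 of ARMC1, a mitochondrial protein, had 1, 51 and 0 counts in MII oocytes alone. The 3 circles of TTC27 had 5 and 14 counts in MII oocyte replicates 1 and 2 and 92 in sperm replicate 1, and those of TTC6 had 11 and 2 in MII oocyte replicates 2 and 3 and 47 in PN embryo replicate 2.

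The design asks which RNAs are in sperm and in PN embryos and not in MII oocytes, the pattern of RNA that sperm could bring to the egg. The 4 members of this pattern were circRNA1594 of CCDC171, circRNA1636 of ZPBP, circRNA2030 of AKAP6 and circRNA2133 of TEKT3. They make up 4.21% of the members, beside 3.35% of all circRNAs. None had more than 1 count in any PN embryo library, while their sperm counts were 0 and 236 for CCDC171, 376 and 273 for ZPBP, 0 and 906 for AKAP6 and 0 and 613 for TEKT3. The ratios of pooled counts in sperm to PN embryos were 53.8, 74.0, 207 and 140, with lower 95% counting bounds of 9.56, 20.4, 37.0 and 24.99. For CCDC171, AKAP6 and TEKT3 all sperm counts came from replicate 2. Their ratios and bounds therefore do not cover the spread between the sperm libraries. A single embryo count is under the floor of 3, so the PN embryo side of the pattern was not resolved at this depth. A further 19 members were above 0 in PN embryos, at 0 in MII oocytes and at 0 in sperm, with counts of up to 137, and 12 of these had 10 or more counts in a library.

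The sperm libraries shared few members. Replicate 1 alone held 8 members, replicate 2 alone 18, and both 2, ZPBP and DNAH10. The shared ones are 20% of those in replicate 1 and 10% of those in replicate 2, beside 22.4% and 22.2% over all circRNAs of these libraries. At 0 in replicate 1 and with 100 or more counts in replicate 2 were 10 members, and 2 showed the opposite, while over all circRNAs 231 showed the first pattern and 231 the second. The members thus leaned towards replicate 2 where the table as a whole did not lean, and no test was made of this. Without replicate 2, 10 members were detected in sperm, 8 of them in sperm alone, in place of 28 and 22.

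**Figure D5:**
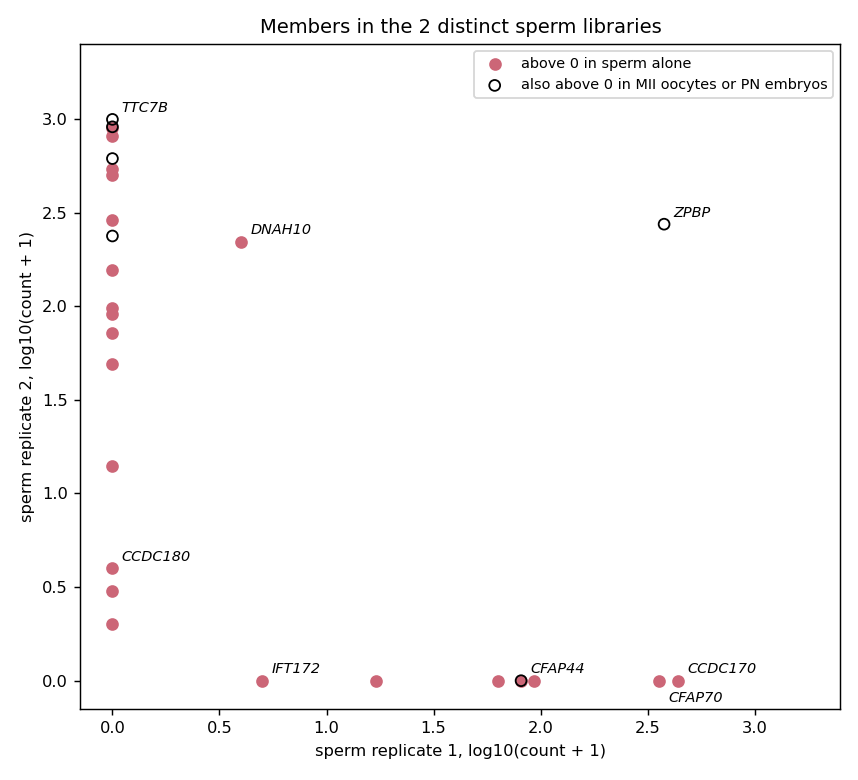
Each point is 1 of the 28 members detected in sperm, placed by log10(count + 1) in sperm replicate 1 and in replicate 2. Filled points were above 0 in sperm alone and open ones also in MII oocytes or PN embryos. All points but ZPBP (376 and 273 counts) and DNAH10 (3 and 220 counts) lie on an axis, at 0 in the other library.

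The groups were then compared in pairs with edgeR's quasi-likelihood test over all circRNAs above 0 in at least 2 libraries of the pair, and to pass, a circRNA needed a log2 fold change of at least 1 in size together with an adjusted p-value under 0.05 (Benjamini-Hochberg). Between PN embryos and MII oocytes 27 members could be tested and 0 passed, as in the whole table, where 0 of 675 circRNAs (0%) did. At an unadjusted p-value under 0.05 there were also 0 members, against 2.37% of all circRNAs tested, and DESeq2 called 0 members, with 1 at an unadjusted p-value under 0.05 (5.04% of all tested). The smallest adjusted p of a member by edgeR was 0.386. The median log2 fold change of the members tested was 0.57 and that of all circRNAs tested -0.17.

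Between sperm and MII oocytes 14 members were tested by edgeR and 0 passed, beside 3.91% of the 486 circRNAs tested. At an unadjusted p-value under 0.05 were 4 of them, circRNA1636 of ZPBP, higher in sperm, and circRNA401 of CFAP44, circRNA862 of SPATA5 and circRNA224 of TEX9, lower in sperm, beside 34.8% of all circRNAs. For ZPBP the edgeR log2 fold change was 10.32 ± 3.51 (SE) with an adjusted p of 0.105, and for circRNA401 it was -10.30 ± 3.04 (SE) with the same adjusted p. Fitted values of circRNAs that are at 0 in a group depend on the prior count of the fit and are no bounds. DESeq2 called 11 of the 14 members, with TTC7B and ZPBP higher in sperm and 9 lower, but it also called 54.5% of all circRNAs tested, 15% as higher and 39.5% as lower. The TTC7B circle had 0 and 993 counts in sperm, so its call rests on 1 sperm library. At an unadjusted p-value under 0.05 DESeq2 had 12 members and 66.5% of all circRNAs.

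Between sperm and PN embryos 15 members were tested by edgeR and 0 passed, beside 1.55% of 453. Those at an unadjusted p-value under 0.05 were 2, ZPBP, higher in sperm, and circRNA313 of CCDC126, lower in sperm, beside 25.8% of all circRNAs tested. The edgeR log2 fold change of ZPBP was 6.10 ± 2.38 (SE) and that of circRNA313 was -9.49 ± 3.34 (SE), both with an adjusted p of 0.128. DESeq2 called 10 of the 15, ZPBP higher and 9 lower, and 55.8% of all circRNAs tested, 10.6% as higher and 45.3% as lower. Its unadjusted p-value was under 0.05 for 11 members and 62.5% of all circRNAs. Of the members tested, 10 of 14 against MII oocytes and 9 of 15 against PN embryos were at 0 in both sperm libraries and entered only through the other group, as did 53.9% and 44.4% of all circRNAs tested. All 9 members that DESeq2 called lower in each comparison were among these, as were those lower at an unadjusted p-value under 0.05 in edgeR, so their direction was set by the filter. The same holds for ZPBP against MII oocytes, which is at 0 in all of them and was tested through sperm alone. Only 2 of the 28 members found in sperm were in both of its libraries. These comparisons share the sperm libraries and are not independent of each other.

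Because circles of 1 gene took turns between libraries, counts were also summed per host gene and tested the same way, a step chosen after the data were seen. Among member genes edgeR passed 0 of 22 between PN embryos and MII oocytes (0% of all hosts tested), 0 of 16 between sperm and MII oocytes (2.95%) and 0 of 15 between sperm and PN embryos (1.47%). At an unadjusted p-value under 0.05 there were 0, 5 and 5 member genes, beside 4.35%, 33.1% and 32.7% of all hosts. Against MII oocytes these were CCDC91, DNAH7, SPAG1 and SPATA5, at 0 in both sperm libraries, and ZPBP, at 0 in MII oocytes. Against PN embryos they were CCDC126, CCDC18, CCDC91, DNAH7 and SPAG1, all at 0 in sperm. The filter thus fixed the direction of each of these genes. For DNAH7, at 0 in both sperm libraries, the edgeR log2 fold change of sperm against MII oocytes was -10.51 ± 3.19 (SE, adjusted p of 0.124), and for CFAP44 it was -4.58 ± 2.38 (SE, adjusted p of 0.146). PN embryos and MII oocytes differed by -0.26 ± 1.15 (SE) for CFAP44 and by -0.15 ± 2.10 (SE) for DNAH7 on the log2 scale, with adjusted p of 0.998 for both in edgeR.

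DESeq2 called 0, 6 and 10 member genes in these host comparisons, beside 0%, 33.1% and 43% of all hosts. Its unadjusted p-value was under 0.05 for 1, 10 and 13 member genes, beside 11.2%, 48.9% and 52.4%. Against MII oocytes, ZPBP was higher in sperm, and ARMC1, DNAH7, SPAG1, SPATA5 and TEX9 were lower (4.85% and 28.2% of all hosts). Against PN embryos, AKAP6 was higher, and AKAP10, CCDC126, CCDC18, CCDC91, CFAP44, DNAH11, DNAH7, SPAG1 and TTC29 were lower (7.35% and 35.7%). AKAP6 had 0 and 1443 counts in sperm and 1 in PN embryos, so its call rests on 1 sperm library. All 5 genes lower against MII oocytes, and 8 of the 9 lower against PN embryos, the exception being CFAP44, were at 0 in both sperm libraries, so the filter fixed their direction, and ZPBP, at 0 in MII oocytes, could only come out higher there. Leaving out sperm replicate 1, which held all 80 sperm counts of CFAP44, let CFAP44 pass against MII oocytes in edgeR, as 1 of 13 member genes beside 26 of 433 hosts (6.005%), with the single sperm library left assumed to vary like the other group. That library has 0 counts of CFAP44, so the direction was fixed here too.

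What the members had in common besides their names was examined from the RefSeq gene table, in which 51 of the 53 host genes were matched. The median length of a matched host gene was 128 kb, beside 102 kb for all matched hosts in the table and 19.2 kb for all protein-coding genes of the RefSeq table. Host genes with 1 circle had a median length of 71.4 kb and those with 2 or more 175 kb, beside 82.3 kb and 134 kb in the whole table. Members had 1.79 circles per host and all circRNAs 1.78. Of the host genes, 35 had a single circle and 8 had 3 or more: CFAP44, DNAH7, DNAH11, CCDC91, CFAP70, TTC21B, TTC27 and TTC6.

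Further genes that the name stems do not reach, listed by hand as genes of cilia, basal bodies and sperm, gave 93 circRNAs from 46 host genes. Their share of the library was 7.66% ± 0.761 (SD, n = 3) in MII oocytes, 5.10% ± 1.68 (SD, n = 3) in PN embryos and 7.01% ± 1.36 (SD, n = 2) in sperm, above that of the members in each of the 8 libraries. In sperm most of it came from 2 circles of WDR27, circRNA199 and circRNA1187, which held 67.6% and 65.5% of the list's counts. Without WDR27 the list made up 2.58% and 2.08% of the sperm libraries, and in replicate 2 this was below the share of the members. In edgeR 4 of the 20 tested passed between sperm and MII oocytes (3.91% of all circRNAs tested), 1 higher (circRNA199 of WDR27) and 3 lower in sperm. Between sperm and PN embryos 2 of 17 passed (1.55%), both lower. All of those lower were at 0 in both sperm libraries, which fixed their direction. For PN embryos against MII oocytes it was 0 of 27 (0%). This list was drawn up with earlier results of these data known. The cilium or sperm roles of its genes, WDR27 among them, were not checked here.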

How the data were processed

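The authors deposited whole-number circRNA counts without normalization, 1 column per library. Their processing notes name cutadapt 1.9, TopHat2 2.0.4, HISAT2 2.0.4, StringTie 1.3.4d, edgeR and the pig build Sscrofa11.1. Which of these gave the circRNA counts is not given in the sources used here. The deposited mRNA and lncRNA tables were not used, so linear transcripts of the member genes were not examined. Of the circRNA columns, 0 were left out. Members and gene lists were chosen with earlier results of these data known.

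Shares are percent of the library's total circRNA count. Pairs of groups were fitted with edgeR 4.0.16 (glmQLFit, glmQLFTest, R 4.3.3) on circRNAs above 0 in at least 2 libraries of the pair, with total counts as library sizes, and p-values were adjusted by Benjamini-Hochberg over all circRNAs tested. SEs are the log2 fold change over the root of F. DESeq2 1.42.0 was an alternative. The code was tested on simulated counts. These did not copy the many circles confined to a single library, so the power of the tests on these data was not tested. Descriptions used Python 3.11.15, pandas 2.3.3 and scipy 1.17.1. Host positions are from RefSeq. Named are members that passed, the 10 highest by mean share in each group, those in every library of a group, those in all 3 groups or in PN embryos and sperm but not MII oocytes, and hosts with 3 or more circles. Others named by role were chosen after their values were seen.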

Additional observations from a re-analysis of the deposited data

How the results depend on the processing

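Across the alternatives (TMM factors, DESeq2, other filters, all groups in 1 fit, the adjusted p alone, the identical sperm columns counted as 2 samples, each replicate left out), the counts of members passing stayed at 0 except for sperm against MII oocytes with DESeq2 (11) and with circRNAs above 0 in at least 3 libraries (1 of 3, circRNA401 of CFAP44, lower in sperm, beside 70 of all 123 circRNAs, 56.9%), and for sperm against PN embryos with DESeq2 (10). For host genes, sperm against MII oocytes gave 6 with DESeq2, 1 of 4 in the stricter filter (DNAH7, beside 44 of all 231 hosts, 19.0%) and 0 to 1 with a replicate left out, and sperm against PN embryos gave 10 with DESeq2. Both circRNA401 and DNAH7 were at 0 in sperm and met that filter through MII oocytes alone, so it fixed their direction. The cause of the gap between the tools was not tested. TMM factors moved the median log2 fold change of all circRNAs by -2.18 for sperm against MII oocytes and by -0.60 for sperm against PN embryos, and no member tested changed sign there.

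Members above 0 in at least 2 libraries numbered 11 in MII oocytes, 10 in PN embryos and 2 in sperm, 1 of them in sperm alone, in place of 50, 39, 28 and 22. With a replicate left out, members above 0 in any remaining library numbered 33 to 43, 24 to 34, 10 to 20 and 8 to 24. The lowest numbers came without MII oocyte replicate 1 (33), PN embryo replicate 3 (24) and sperm replicate 2 (10 and 8). With a replicate left out, mean shares ran from 1.71% to 2.47% in MII oocytes, from 1.76% to 2.56% in PN embryos and from 0.969% to 4.02% in sperm.

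With the replicate block, 0 members passed in each comparison. Same-numbered MII oocyte and PN embryo libraries deviated together with r of -0.0033, 0.1002 and 0.170 across 877 circRNAs, so that the numbers were not taken to pair them. The block called 0 of all circRNAs in each comparison, against 0, 19 and 7 without it. Among PN embryo libraries, MII oocyte replicate 1 correlated best with replicate 2, while MII oocyte replicates 2 and 3 each correlated best with the same-numbered library. Whether the numbers mark pairs is thus not settled by these values.

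Depth limits what a 0 means: a member at 0 in an oocyte or embryo library can still hold up to 0.0115% to 0.0132% of its circRNA counts, against at most 0.00193% in sperm.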
